A study of Mus musculus with 6 samples.

Results

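Pluripotency network genes were followed in cardiac progenitor (CP) cells derived from mouse embryonic stem cells (ESCs). The group has 10 members, Pou5f1, Sox2, Nanog, Klf2, Klf4, Esrrb, Zfp42, Utf1, Lin28a and Lin28b, taken by gene symbol from the 25701 genes of the expression table, with earlier results of these data known. The RNA-seq compared 3 libraries of control cells (46C-Ctrl) with 3 libraries labelled Zhx1-KO (Zhx1-KO libraries), to learn which genes change at the CP stage when Zhx1 is deleted. Both groups derive from 46C, a mouse ESC line in which GFP reports expression from the Sox1 locus. ESCs were kept on feeder cells with LIF, and both groups went through the same induction, first without serum, then with BMP4, Activin A and VEGF, and then with VEGF, FGF10 and bFGF. Zhx1-KO was made with CRISPR/Cas9 guides placed near the start and the stop site of Zhx1, a zinc finger and homeobox factor, and the sources used here do not give the number of clones behind it.

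Pou5f1 (Oct4) and Sox2 are transcription factors that bind DNA together and hold ESCs in the undifferentiated state. Nanog, Klf2, Klf4, Esrrb and Zfp42 belong to the naive part of the network, Utf1 is a chromatin-associated target of the core factors, and Lin28a and Lin28b are RNA-binding proteins that block maturation of let-7 microRNAs. When ESCs differentiate, the network is switched off in steps: naive genes go early, Pou5f1 lasts through the epiblast and early mesoderm, and Sox2 is retained in neural progenitors.

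In Zhx1-KO libraries, the members did not move together. Nanog, Pou5f1, Klf4 and Utf1 were lower, by 13.1-fold, 3.44-fold, 3.20-fold and 1.87-fold between the group means. Sox2 was 3.37-fold higher, and Lin28b was 1.16-fold higher. Klf2, Esrrb and Lin28a did not pass the test, and Zfp42 was too low to be tested. Of the 9 members tested, 4 were therefore lower, 2 were higher and 3 were not called, at an adjusted p under 0.05 from limma with Benjamini-Hochberg adjustment over all genes tested. The comparison as a whole is wide: of 15372 genes tested, 52.0% were called, 25.6% as higher and 26.4% as lower. Between the groups, libraries did not overlap for 9 of 9 tested members, and for 60.8% of all genes tested (30.4% with Zhx1-KO higher and 30.4% with Zhx1-KO lower). Being called, or not overlapping, is thus common in these data. By absolute log2 fold change, 1.55% of all genes tested exceeded Nanog, 7.29% Esrrb, 8.81% Pou5f1, 9.07% Sox2, 9.97% Klf4, 23.6% Utf1, 35.2% Klf2, 70.2% Lin28b and 92.0% Lin28a. The called change of Lin28b was therefore smaller than that of most genes.

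Promoter sequences of the 3 core factors are shown because Pou5f1, Sox2 and Nanog stand at the centre of the network and moved in different directions. Each run is 120 bases before the transcription start in RefSeq's annotation of GRCm38.p6, on the plus strand, and capitals mark matches to 3 motifs on either strand. The motifs were the octamer core of Pou5f1 (ATGCAAA), a Sox core (ACAATG) and a Klf box (GGGNGTGG). The windows lie at chr17:35505912-35506031 for Pou5f1, chr3:34649875-34649994 for Sox2 and chr6:122707369-122707488 for Nanog. RefSeq's start of Sox2 lies upstream of the GENCODE start used for the gene positions given with the values.
Pou5f1: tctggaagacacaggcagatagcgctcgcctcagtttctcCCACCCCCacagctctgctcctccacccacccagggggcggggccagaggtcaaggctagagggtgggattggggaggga
Sox2: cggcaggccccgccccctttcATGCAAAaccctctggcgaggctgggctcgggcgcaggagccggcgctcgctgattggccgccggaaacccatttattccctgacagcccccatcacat
Nanog: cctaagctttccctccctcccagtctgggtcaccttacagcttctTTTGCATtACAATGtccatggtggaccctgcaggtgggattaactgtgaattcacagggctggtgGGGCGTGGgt

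In the first annotated window of 250 bases before to 50 bases after the start, which was found for all 10 members, Pou5f1 had a Klf box at position -80, written on the opposite strand. Sox2 had an octamer core at -99. Nanog had an octamer core at -75 on the opposite strand with a Sox core next to it at -67, and Klf boxes at -10 and at 25. Together its octamer and Sox cores form the composite TTTGCATNACAATG, to which Pou5f1 and Sox2 proteins are known to bind side by side. That composite stood in 2 of 32851 windows (0.00609%), both of them alternative starts of Nanog. It was spelled out after the Nanog match was seen. Single motifs are common, with the octamer core in 4.63%, the Sox core in 12.6% and the Klf box in 17.6% of all windows. Among the other members, Zfp42 had an octamer core at -185 and a Klf box at -75, Lin28a a Sox core at -96 and Esrrb a Sox core at 33, all on the opposite strand. No match overlapped another. A second window of Pou5f1 had a Sox core at -158. No match to these 3 motifs was found for Klf2, Klf4, Utf1 or Lin28b. An Esrrb element (TCAAGGTCA, in 0.423% of all windows) and a TATA box (TATAAA, in 13.6%) matched no member's window. A match describes letters and not binding.

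The values are normalized counts, read counts per gene scaled by the authors with a single factor for each library, and the depth behind them was alike (13769967 to 15940874 in units of 1 read's worth). Genes averaging at least 10 across all 6 libraries were tested, fold changes are fitted on log2(value + 1), which understates the change of low genes, and the median log2 fold change of all genes tested was 0.01. The replicate 46C-Ctrl 2 stood apart, with 2.77% of its values in mitochondrial genes against 1.72% to 1.87% in the other 5 libraries. Zhx1 itself had 460, 181 and 457 normalized counts in 46C-Ctrl, against 225, 325 and 308 in Zhx1-KO libraries (log2 fold change -0.25, adjusted p = 0.579 from limma). With each library left out, its log2 fold change ran from -0.70 to -0.03. The -0.70 came without 46C-Ctrl 2 (adjusted p = 0.0121 from limma), and under 13 of 14 alternatives Zhx1 was not called. Counts are given per gene, so which parts of Zhx1 they come from was not tested, and the transcript does not settle the labels. CP markers were present in 46C-Ctrl, where the summed level of 6 of them ran from 7770 to 8527, and it ran from 1081 to 1159 in Zhx1-KO libraries. Without Hand1, the most abundant of them, the sums of the other 5 were 2366 to 2492 and 851 to 973. In bulk RNA, fewer cells of a type and less RNA per cell cannot be told apart. The study's methods describe its statistical data as coming from independent experiments, but no label says which libraries came from separate cultures, so p-values cover how these libraries vary, which may be in part technical.

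**Figure D1:**
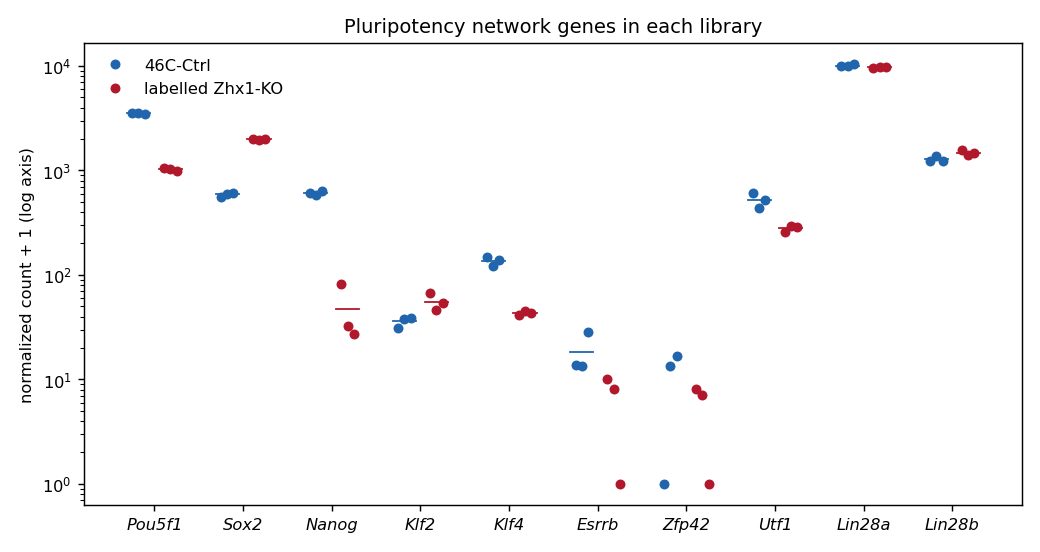
Normalized counts plus 1 of the 10 members on a log axis, with 1 point per library (46C-Ctrl in blue, libraries labelled Zhx1-KO in red) and a line at the group mean where no library is at 0. Pou5f1 and Nanog drop, Sox2 climbs to 1985 and Lin28a lies between 9572 and 10331 in all 6 libraries.

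Pou5f1, the POU-domain factor at the centre of the network (chromosome 17, 35506018 to 35510772), had 3538, 3546 and 3488 normalized counts in 46C-Ctrl replicates 1, 2 and 3. It had 1054, 1042 and 977 in Zhx1-KO replicates 1, 2 and 3. Each group was tight, and the lowest control was over 3 times the highest library of Zhx1-KO. The means were 3524 ± 31.1 and 1024 ± 41.4 (SD, n = 3 each), which gave a log2 fold change of -1.78 (standard error 0.05, 95% interval -1.90 to -1.67, adjusted p = 3.9e-07 from limma).

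Sox2, the high-mobility-group partner of Pou5f1 (chromosome 3, 34650405 to 34652461), moved the other way. Its normalized counts were 560, 598 and 608 in 46C-Ctrl and 1999, 1975 and 1983 in Zhx1-KO libraries. No library of one group came near those of the other. The means were 589 ± 25.7 and 1985 ± 12.0 (SD, n = 3 each), which gave a log2 fold change of 1.75 (standard error 0.06, 95% interval 1.62 to 1.88, adjusted p = 7.0e-07 from limma). Sox2 lies within the long non-coding gene Sox2ot, and for the program that assigned reads to genes nothing was given in the sources used here. Sox2ot itself had 0, 2.07 and 1.05 in 46C-Ctrl, against 0, 10.1 and 17.6 in Zhx1-KO libraries, too low to be tested.

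The partners therefore changed places. Within a library, the log2 ratio of Sox2 to Pou5f1 was -2.66, -2.56 and -2.52 in 46C-Ctrl and 0.92, 0.92 and 1.02 in Zhx1-KO libraries. The normalized count of Pou5f1 was the larger in every control, and that of Sox2 was the larger in every Zhx1-KO library. The mean ratio rose by 3.54, from -2.58 ± 0.07 to 0.96 ± 0.06 (SD, n = 3 each; exact two-sided permutation p = 0.1, the smallest that 3 against 3 allows). This ratio compares counts per gene, and per kb of exon the order was the same: Pou5f1 stood at 1568 and Sox2 at 286 per kb in 46C-Ctrl, and Pou5f1 at 456 and Sox2 at 965 in Zhx1-KO libraries.

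**Figure D2:**
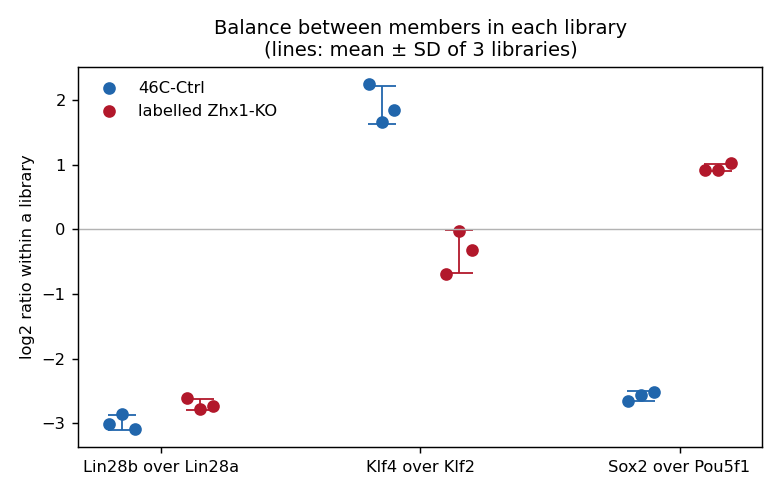
The log2 ratio of normalized counts between 2 members within each library, with 1 point per library and the mean ± SD of 3 libraries per group (46C-Ctrl in blue, labelled Zhx1-KO in red). The ratio of Sox2 to Pou5f1 crosses 0 upwards, that of Klf4 to Klf2 falls from 1.92 to -0.34, and that of Lin28b to Lin28a moves by 0.27.

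Genes with the pattern most like each partner were sought among 10804 genes with a mean of at least 100, by the mean absolute difference of log2 values over the 6 libraries, after centring each gene on its mean. For Pou5f1 the nearest were Fhl2, a LIM-domain protein of heart muscle (490 to 138, difference 0.0336), Tbx20, a cardiac T-box factor (1474 to 427, difference 0.0344), and Tead4, a TEAD factor of trophectoderm (711 to 214, difference 0.0399), given as means of normalized counts in 46C-Ctrl and in Zhx1-KO libraries. For Sox2 they were Atp8a2, a phospholipid flippase of neurons (44.9 to 160, difference 0.0336), Klk8, a serine protease (85.3 to 286, difference 0.0443), and Shh, the sonic hedgehog ligand (359 to 1233, difference 0.0469). With 6 libraries in 2 groups, likeness of this kind mostly measures a similar fold change. Tead4 lies on chromosome 6 between 110 and 140 Mb, a segment with many lower genes that is described below for Nanog.

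Nanog, the homeobox factor of the naive and early epiblast state (chromosome 6, 122707489 to 122714633), had the largest fitted change of the 9 members tested. It had 608, 584 and 638 normalized counts in 46C-Ctrl, against 81.6, 31.3 and 26.4 in Zhx1-KO libraries. The controls were close together, while Zhx1-KO 1 had more than double the value of the other 2. The means were 610 ± 27.1 and 46.5 ± 30.6 (SD, n = 3 each), which gave a log2 fold change of -3.87 (standard error 0.37, 95% interval -4.74 to -3.00, adjusted p = 0.00011 from limma). Processed copies of Pou5f1 and Nanog exist in the mouse genome, and the sources used here do not give how shared reads were counted.

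Nanog sits in a stretch of chromosome 6 in which many genes were lower. Of the 9 other tested genes within 500 kb, 7 were lower, 2 were not called and 0 were higher, with a median log2 fold change of -1.03. Slc2a3, a glucose transporter 20.3 kb away, fell from 70614 to 26408 (log2 fold change -1.42). Gdf3, a TGF-beta family ligand of pluripotent cells, fell from 19.4 to 4.20 (-1.95), and Foxj2, a forkhead factor, from 417 to 165 (-1.36). M6pr (-0.99), Necap1 (-0.66), Phc1 (-0.48) and Gm5112 (-1.55) were also lower, while Gm26826 (-1.03, adjusted p = 0.0529 from limma) and Rimklb (0.12, adjusted p = 0.179 from limma) were not called. Between 110 and 140 Mb of chromosome 6, bounds set after values of these data were seen, 122 of 215 tested genes other than Nanog were lower and 21 were higher, with a median of -0.58. In the rest of the chromosome 144 of 524 were lower and 135 were higher, with a median of 0.02. In this segment 1 gene (Irak2, named after its value was seen) had a more negative log2 fold change than Nanog. The part of the segment in the result for Nanog was not tested.

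**Figure D3:**
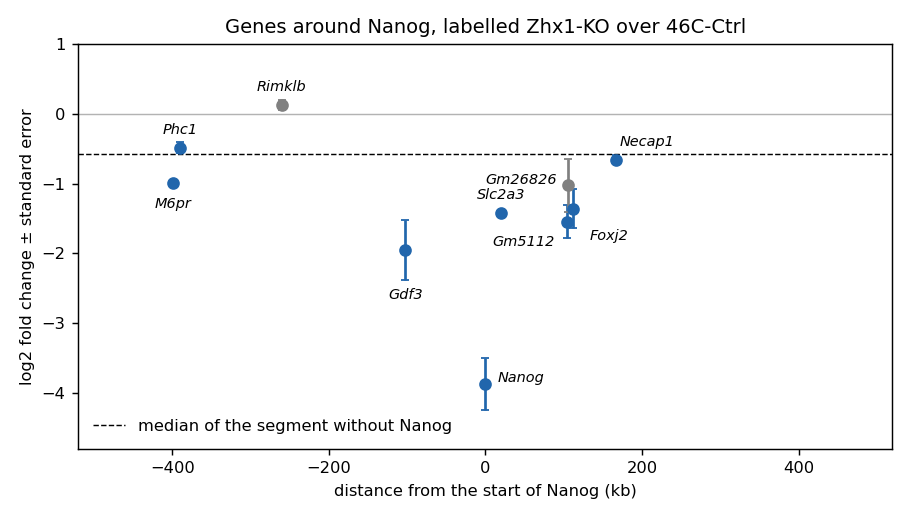
Fitted log2 fold change ± standard error of Nanog and the 9 other tested genes within 500 kb, by distance from the start of Nanog in kb (blue, lower; grey, not called), with a dashed line at the median of the segment (-0.58). Nanog, at -3.87, lies below all of its neighbours.

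For the chromosomes of the other members, the median log2 fold changes of all their tested genes lay between -0.05 (chromosome 17, Pou5f1) and 0.02 (chromosome 7, Utf1). No member lies on chromosome 11, where 675 of 1187 tested genes were higher with a median of 0.42.

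Klf4 and Klf2, zinc finger factors that can partly replace each other in holding naive ESCs, had fold changes of opposite sign, of which only that of Klf4 passed the test. Klf4 (chromosome 4, 55527143 to 55532466) had 147, 120 and 139 normalized counts in 46C-Ctrl, against 40.3, 44.5 and 42.2 in Zhx1-KO libraries. All controls were well above, at 136 ± 14.0 against 42.4 ± 2.09 (SD, n = 3 each), and the log2 fold change was -1.65 (standard error 0.17, 95% interval -2.04 to -1.27, adjusted p = 0.00013 from limma). Klf2 (chromosome 8, 72319033 to 72321656) had 30.2, 37.3 and 38.0 in 46C-Ctrl, against 65.5, 45.5 and 52.8 in Zhx1-KO libraries. Its groups did not overlap, but the log2 fold change of 0.61 (standard error 0.23, 95% interval 0.07 to 1.16) missed the threshold with an adjusted p of 0.0602 from limma. When limma was run without its trend of variance on mean level, the adjusted p was 0.0292. The log2 ratio of Klf4 to Klf2 fell from 1.92 ± 0.30 to -0.34 ± 0.33 (SD, n = 3 each; exact two-sided permutation p = 0.1, the smallest possible), with no overlap between the groups.

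Esrrb, an orphan nuclear receptor of the naive network (chromosome 12, 86361117 to 86521628), was low in every library. It had 12.7, 12.4 and 27.4 normalized counts in 46C-Ctrl, against 9.07, 7.08 and 0 in Zhx1-KO libraries. The groups did not overlap, but the log2 fold change of -2.00 had a 95% interval of -4.11 to 0.11 (adjusted p = 0.102 from limma). It was -0.94 without Zhx1-KO 3, the library at 0. Zfp42 (Rex1), a zinc finger marker of naive ESCs (chromosome 8, 43295063 to 43306980), had 0, 12.4 and 15.8 in 46C-Ctrl, against 7.05, 6.07 and 0 in Zhx1-KO libraries. Its groups overlapped (exact two-sided permutation p = 0.6, where 0.1 is the smallest possible). This test could not have given a p under 0.05, so it does not decide whether Zfp42 differed. A listed 0 may be a failed estimate here: 40 genes of 46C-Ctrl and 27 genes of Zhx1-KO had a 0 beside a replicate reaching 100 or more.

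Utf1, a chromatin-associated factor of pluripotent and germ cells (chromosome 7, 139943789 to 139945112), had 609, 438 and 520 normalized counts in 46C-Ctrl. It had 259, 293 and 287 in Zhx1-KO libraries. The controls spread widely, but the lowest of them was still above every Zhx1-KO library. The means were 522 ± 85.3 and 280 ± 18.2 (SD, n = 3 each), which gave a log2 fold change of -0.89 (standard error 0.13, 95% interval -1.18 to -0.59, adjusted p = 0.00081 from limma).

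Lin28a and Lin28b differed little between the groups. Lin28a (chromosome 4, 134003330 to 134018841) had 9956, 9968 and 10331 normalized counts in 46C-Ctrl, against 9572, 9745 and 9782 in Zhx1-KO libraries. Its groups did not overlap, yet they lay close together, at 10085 ± 213 and 9700 ± 112 (SD, n = 3 each). The log2 fold change of -0.06 was not called (standard error 0.04, adjusted p = 0.277 from limma), with a 95% interval of -0.15 to 0.04. Lin28b (chromosome 10, 45376620 to 45486395) had 1234, 1375 and 1218 in 46C-Ctrl, against 1562, 1412 and 1477 in Zhx1-KO libraries. The highest control, 1375, was near the lowest library of Zhx1-KO, 1412. The means were 1275 ± 86.3 and 1484 ± 75.4 (SD, n = 3 each), which gave a log2 fold change of 0.22 (standard error 0.07, 95% interval 0.06 to 0.38, adjusted p = 0.029 from limma). Over the alternatives its adjusted p from limma ran from 0.00862 to 0.0962, and it was lost without 46C-Ctrl 1 (0.0847) or 3 (0.0932), without Zhx1-KO 1 (0.0962) or 3 (0.0694), and when limma was run without the trend (0.0738). The log2 ratio of Lin28b to Lin28a rose by 0.27, from -2.98 ± 0.12 to -2.71 ± 0.09 (SD, n = 3 each; exact two-sided permutation p = 0.1, the smallest possible). After adjustment over the 3 ratios tested, each p remained 0.1.

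**Figure D4:**
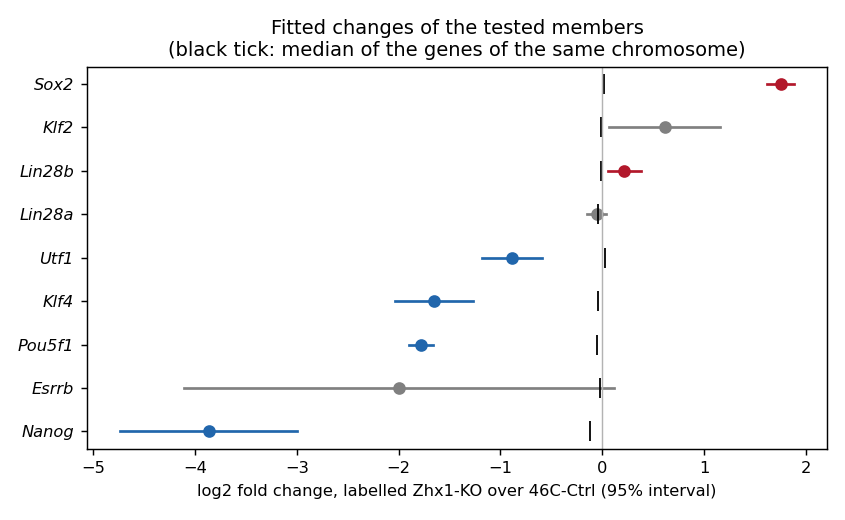
Fitted log2 fold changes of the 9 tested members, libraries labelled Zhx1-KO over 46C-Ctrl, with 95% intervals (red, called higher; blue, called lower; grey, not called) and a black tick at the median of the genes of the same chromosome. Nanog (-3.87) and Sox2 (1.75) mark the ends of the range, and the interval of Lin28a lies about 0.

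Levels of different members can be set against each other only per length of exon. In 46C-Ctrl the order of normalized counts per kb ran from Lin28a (2524) and Pou5f1 (1568) through Utf1 (426), Sox2 (286) and Nanog (272) to Lin28b (141), Klf4 (44.4) and Klf2, with Zfp42 and Esrrb last. In this order the libraries of Sox2 and Nanog overlapped, as did those of Zfp42 and Esrrb, and the other neighbours were apart. In Zhx1-KO libraries, Lin28a (2427) was followed by Sox2 (965), Pou5f1 (456), Utf1 (228), Lin28b (164), Klf2 (29.6), Nanog (20.7) and Klf4 (13.9). Here Klf2 overlapped with Nanog and Nanog with Klf4, and Zfp42 and Esrrb were again last and overlapped. Sox2 thus moved from the fourth place to the second, and Nanog from the fifth to the seventh.

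Other genes of the network were grouped in lists. Of 15 naive genes 9 were tested, of which 4 were lower and 3 were higher, with a median log2 fold change of -0.84 against 0.01 for all genes tested. Over all genes tested, 26.4% were lower and 25.6% were higher, and the counts of every list here and below stand beside these shares. Genes said to rise or fall passed the same test, and values are group means of normalized counts with the log2 fold change in brackets. Tbx3, a T-box factor of naive ESCs and of early mesoderm, fell from 1394 to 88.9 (-3.96), Tfcp2l1 from 319 to 47.9 (-2.74) and Dppa5a from 43.2 to 5.17 (-2.84). Eras, a Ras-like GTPase of ESCs, rose from 130 to 398 (1.61). Dppa3, Prdm14 and Tcl1 were at 0 in every Zhx1-KO library, and their values in 46C-Ctrl were no higher than 5.85. In 46C-Ctrl, Dppa3 had 0, 0 and 4.22 and Tcl1 had 1.95, 0 and 0, so these show no contrast between the groups. Dppa3 lies in the same segment of chromosome 6 as Nanog.

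Of 14 general pluripotency genes 13 were tested, of which 10 were lower and 1 was higher (Jarid2, a Polycomb cofactor), with a median of -0.48. L1td1, an RNA-binding protein of ESCs, fell from 1219 to 288 (-2.08), Tdgf1, the Nodal co-receptor, from 810 to 208 (-1.96) and Foxd3 from 156 to 27.6 (-2.53). Dppa2 had 10.7, 2.07 and 8.44 in 46C-Ctrl and was listed at 0 in every Zhx1-KO library. Gdf3 and Phc1 of this list are neighbours of Nanog.

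The 12 formative and primed epiblast genes were split, with 6 higher, 4 lower and a median of 0.22. Fgf5, a growth factor of the primed epiblast, fell from 1149 to 210 (-2.44) and Lef1, a Wnt effector, from 523 to 159 (-1.72). Otx2, a homeobox factor of epiblast and forebrain, rose from 346 to 799 (1.21), and Pou3f1, a POU factor of epiblast and neural progenitors, from 424 to 642 (0.60). Of the 8 genes of LIF and STAT3 signalling, which feeds the naive network, 4 were lower and 1 was higher, with a median of -0.43. Il6st, the shared receptor subunit gp130, fell from 1909 to 753 (-1.34), Lifr from 1372 to 941 (-0.55) and Jak1 from 1367 to 1125 (-0.28). Stat3 rose from 613 to 911 (0.57). It lies on chromosome 11, as do Lif (-0.37) and Socs3 (-0.24) of this list, which were not called.

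Around Lin28, 14 genes of the let-7 axis were tested, of which 6 were lower, 8 were not called and 0 were higher, with a median of -0.20. Of all genes tested, 52.0% were called. Dgcr8, the partner of Drosha in microRNA processing, fell from 1262 to 694 (-0.86) and Mycn, a let-7 target, from 2348 to 1510 (-0.64). Igf2bp3 (-0.32) and Arid3b (-0.31) fell by less. Hmga2, a well known let-7 target named after its value was seen, had 5337 ± 100 and 5337 ± 186 (SD, n = 3 each).

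Relatives of the members were also counted. Of 13 tested Klf family genes other than Klf2 and Klf4, 9 were lower and 3 were higher, with a median of -0.83. Klf6 fell from 2520 to 1062 (-1.25), Klf3 from 1071 to 590 (-0.86) and Klf9 from 643 to 361 (-0.83), while Klf10 rose from 820 to 1478 (0.85). Among 10 tested relatives and neighbours of Pou5f1, Sox2, Esrrb and Zfp42, 8 were higher and 2 were lower, with a median of 0.97. Sox1, the relative of Sox2 expressed in the neural plate, rose from 17.0 to 240 (3.74) and Sox3 from 402 to 732 (0.88). Pou3f3, a neural POU factor, had 0, 0 and 9.49 in 46C-Ctrl, against 190, 155 and 141 in Zhx1-KO libraries.

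**Figure D5:**
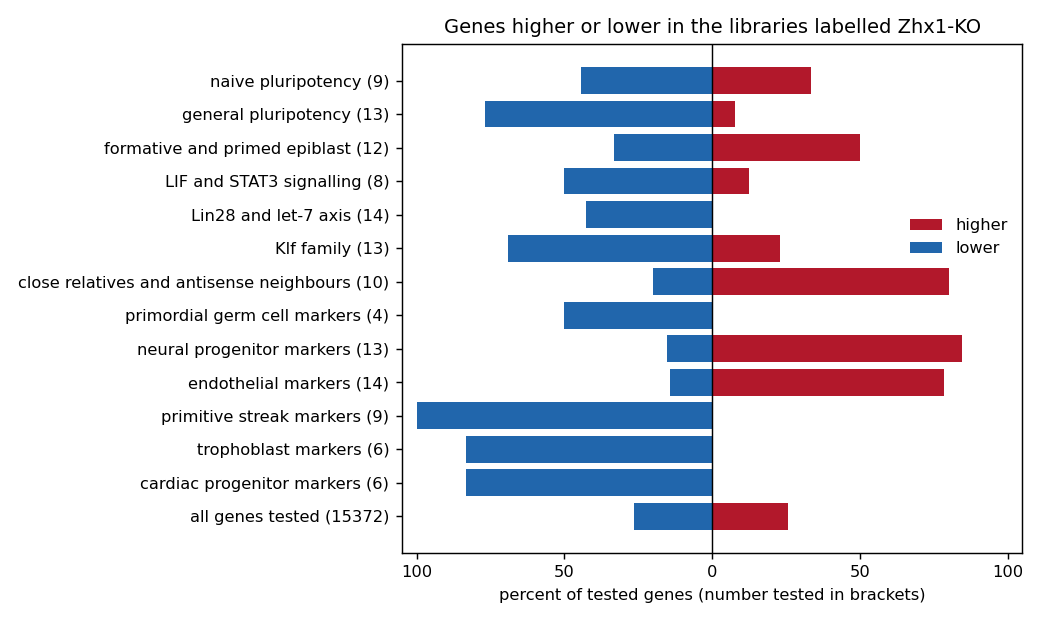
For each list, the percent of its tested genes that were called higher (red, right) or lower (blue, left) in Zhx1-KO libraries, with the number tested in brackets and all 15372 genes in the last bar. Lists share some genes, and they range from 9 of 9 lower (primitive streak) to 11 of 13 higher (neural progenitor).

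Markers of cells in which members are also expressed were counted in the same way. Neural progenitors keep Sox2, and 11 of 13 tested neural progenitor markers were higher and 2 were lower (median 3.74), with a summed level of 3319 to 3801 in 46C-Ctrl and of 4975 to 5110 in Zhx1-KO libraries. Six3, a forebrain homeobox gene, rose from 7.51 to 617 (6.20). The 2 that fell, named after their values were seen, were Nes, an intermediate filament gene and the most abundant of the list, from 2804 to 1652 (-0.76), and Zic1, with a log2 fold change of -1.94. Without Nes the summed level was 810 to 852 in 46C-Ctrl and 3362 to 3414 in Zhx1-KO libraries. Pax6 and Olig2 were at 0 in every 46C-Ctrl library and at 29.2, 14.2 and 29.9 and at 8.06, 12.1 and 7.04 in Zhx1-KO libraries. Their part in the result for Sox2 was not tested.

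Early mesoderm keeps Pou5f1 and Nanog for a time, and 9 of 9 primitive streak markers were lower (median -4.27), with a summed level of 6702 to 6761 in 46C-Ctrl and of 656 to 707 in Zhx1-KO libraries. Eomes fell from 2736 to 15.3 (-7.42), Nodal from 958 to 29.4 (-4.98), Wnt3 from 681 to 34.2 (-4.27) and Mixl1 from 482 to 1.98 (-7.41). Of 6 CP markers 5 were lower (median -1.78). Hand1 fell from 5774 to 198, Hand2 from 1115 to 195, Tbx5 from 62.2 to 1.93 and Mef2c from 463 to 226. The remaining 2, named after their values were seen, were Nkx2-5, which fell from 575 to 327 (-0.82), and Isl1, which was not called (209 and 179, -0.23). The part of these cells in the falls of Pou5f1 and Nanog was not tested.

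Germ cells and trophoblast could also carry some members. Of 8 primordial germ cell markers 4 were tested, of which 2 were lower and 0 were higher (median -0.59, summed level 1023 to 1267 in 46C-Ctrl and 745 to 953 in Zhx1-KO libraries). Prdm1 fell from 331 to 171 and Tfap2c from 76.1 to 23.7, Kit (747 and 637) and Dnd1 (19.2 and 23.4) were not called, and the defining markers Nanos3 and Ddx4 were below 6 in every library. Of 6 tested trophoblast markers 5 were lower (median -1.67, summed level 6989 to 7861 in 46C-Ctrl and 857 to 941 in Zhx1-KO libraries), and Hand1, at 5774 of it on average, made up most of the sum in 46C-Ctrl (1584 to 1831 and 679 to 743 without it). Cdx2 fell from 343 to 17.6, Tead4 from 711 to 214 and Gata3 from 409 to 221, while Elf5 was below 4 in every library. Hand1 is also counted among the CP markers above, and Tfap2c among the germ cell markers. Tead4 lies in the same segment of chromosome 6 as Nanog. Of 14 endothelial markers 11 were higher and 2 were lower (median 2.56, summed level 3427 to 3790 in 46C-Ctrl and 5676 to 6087 in Zhx1-KO libraries). Cdh5 rose from 99.9 to 875, Kdr from 631 to 2079 and Cldn5 from 10.8 to 252, while Flt1 fell from 2051 to 411. Their part in the members' changes was not tested.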

How the data were processed

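PolyA RNA-seq of 6 libraries of CP cells was used, 3 of 46C-Ctrl and 3 labelled Zhx1-KO, grouped by their titles. The authors used cutadapt 1.18 for trimming, HISAT2 2.1.0 for mapping to GRCm38 and StringTie 1.3.4d for FPKM. Cufflinks and DESeq2 also stand in the submitters' processing notes. The deposited table holds a signal per gene, read counts that the authors scaled by a single factor for each library. For the counting program, none was given in the sources used here. All values (100%) were whole multiples of a step per library, within 0.01 of a step.

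Of 25701 genes, those with a mean of at least 10 were tested with limma 3.58.1 (R 4.3.3) on log2(value + 1), with the group in the model, a trend on the mean and Benjamini-Hochberg adjustment, at an adjusted p under 0.05. Ratios and untested genes had exact permutation tests over every split of the libraries. SciPy 1.17.1 was used to adjust the p-values of the ratios. Steps near 1 in 2 libraries could not be judged by the check set for whole reads, so count tests were not run. Alternatives covered pseudocount, filter, normalization, trend, replicate block and each library left out. The steps were tested on simulated data.

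The members, lists and tests were chosen with earlier results of these data known. Named genes are the members, Zhx1, up to 4 genes per list with the smallest adjusted p plus those at 0 in a whole group, tested genes within 500 kb of Nanog, and the 3 genes most like Pou5f1 and Sox2. Some genes that this rule names are not reported here. Positions and exon lengths are from GENCODE and promoters from RefSeq. An exon length per gene is the union of its exons.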

Additional observations from a re-analysis of the deposited data

How the results depend on the processing

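Under 14 alternatives no member's fold change reversed, and 117 of 124 recomputed fold changes of members kept their direction and their side of the threshold. The 4 members called lower were 4 under every alternative. The number called higher, 2, was 1 with the replicate number as a block and ran from 1 to 2 with each library left out, since the call of Lin28b was lost. Without a mean trend Lin28b was lost as well and Klf2 was gained. The number of genes called, 7998, ran from 6836 to 8147. With each library left out, Nanog ran from -4.36 to -3.56 on the log2 scale and Esrrb, never called, from -2.61 to -0.94. Of the recomputed differences of the 3 ratios, 33 of 33 kept their direction, with p = 0.25 in the exact paired permutation test. Over 130 other genes of the lists, around Nanog and Zhx1, 1725 of 1800 recomputed fold changes kept their direction and their call, 36 lost and 18 gained a call, and 21, of 8 genes, changed sign. None of these 21 was called before or after. With quantile normalization the log2 fold changes that changed sign were 0.066 for Dicer1, 0.090 for Dnmt3a, -0.32 for Dnmt3l, -0.089 for Dppa4 and 0.10 for Hmga2, and with a pseudocount of 5 it was -0.19 for Dnmt3l. With each library left out, Dicer1 ran from -0.078 to 0.031, Dnd1 from -0.042 to 0.63, Dnmt3a from -0.031 to 0.033, Dnmt3l from -1.34 to 0.91, Dppa4 from -0.11 to 0.35, Drosha from -0.036 to 0.067, Hmga2 from -0.029 to 0.016 and Igf2bp1 from -0.020 to 0.076.

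The replicate numbers are shared by the groups, but same-numbered libraries did not deviate together (correlations 0.0042, -0.069 and 0.00059), so the numbers are not taken to pair them. With the block, 7374 genes were called, 3625 higher and 3749 lower. The adjusted p of Lin28b from limma was then 0.0645. The tests with edgeR and DESeq2 listed as alternatives were not run, because the check set for whole reads could not judge the steps of 2 libraries. Depth limits Esrrb and Zfp42, which had at most 27.4 normalized counts in any library.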
